A study of Kryptolebias marmoratus with 5 samples.

Results

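Notch pathway and segmentation clock genes were followed through 5 RNA-seq libraries of mangrove killifish (*Kryptolebias marmoratus*) embryos. The genes were taken by name from the RefSeq annotation of the assembly ASM164957v2. They are the Delta and Jagged ligands, the Notch receptors, the proteins that process them, the fringe glycosyltransferases, the nuclear RBPJ complex, the *her*, *hes* and *hey* repressors with the feedback inhibitor *nrarpa*, and the genes that set up somite boundaries. The rule gave 45 of the 22090 genes with a coding sequence in the files. Of these, 39 had a mean of at least 2 CPM (a read count scaled to the size of its library) over the 5 libraries, as did 15362 of all genes. The other 6, *dtx1*, *rbpjl*, *her5*, *hes2.1*, *hey2* and *ripply2*, fell below that mean.

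Notch is a receptor on the cell surface that is cut when it binds a Delta or Jagged ligand on a neighbouring cell. The released intracellular part enters the nucleus and, with the DNA-binding protein RBPJ and Mastermind coactivators, turns on target genes, many of which encode repressors of the Hairy/Enhancer of split family. In the presomitic mesoderm of the tail bud, members of this family repress their own transcription and so oscillate as a segmentation clock, which Notch signalling keeps in step between neighbouring cells. When cells leave the clock, Mesp and Ripply factors and then somite genes such as *tcf15* and *meox1* mark the new somite. Outside the tail the same pathway holds back neuronal differentiation and patterns blood vessels, so that whole embryos report all of these tissues at once.

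Each library was made from a pool of whole embryos, and each group has 1 library. WT is the inbred *Hon9* strain, in which both lines were induced with the mutagen ENU. The *stl* (*shorttail*) library holds homozygous mutants with a missense change in *noto*, a homeobox gene of the notochord, and the *btl* (*balltail*) library holds homozygous mutants with a missense change in *msgn1*, a bHLH gene of the presomitic mesoderm. The *stl*-sibling and *btl*-sibling libraries hold embryos of those lines that looked normal, and the labels do not give their genotypes. The paper's variant screen required reads of both the normal and the mutated form in the siblings, so the mutated forms were present in these pools. All embryos were untreated, were kept at 26 °C and are labelled as stage 17, with stages 16 and 18 possibly included, and each pool held 20 to 25 of them. Each mutation is known from 1 mutant line, so in these libraries an effect of *noto* or *msgn1* on RNA cannot be told apart from other changes in that line. Embryos of stages 16 to 18 may also be mixed differently in each pool. For the tail phenotypes the paper has further evidence from knockdown of both genes in medaka. There the normal killifish mRNA rescued the embryos and the mutated forms did not. Those experiments did not measure the RNA levels given here. The paper also stained RNA in these mutants, at a later stage than that of these pools. It reports *tbx6* as greatly reduced in *btl*, and *noto* and *msgn1* as suppressed in *stl* and expanded in *btl*. It reports *ntl*, a gene of the *tbxt* family, as not significantly altered in either mutant. Staining of the tail is not the same measure as counts from whole embryos.

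The estimated reads summed to between 9147625 in *btl* and 12220249 in *btl*-sibling. Without replicates, the spread between pools of the same kind is unknown, and no test was made. Log2 fold changes were taken between CPM values after 0.5 CPM had been added to each, and a gene is called when it differs at least 2-fold. Beside them stands an exact 95% interval (Clopper-Pearson) that the numbers of reads in both libraries allow for their ratio, without the added 0.5 CPM. It covers counting error only and compares those libraries, not the conditions. The RNA comes from whole embryos, so fewer cells of a type and less RNA per cell cannot be told apart. Reads of the altered genes do not check the labels, since both changes are missense. *msgn1* was at 258.5 CPM in *btl* and between 7.31 and 12.4 CPM elsewhere. *noto* was at 3.71 CPM in *stl*, 16.0 in *btl* and between 7.15 and 8.03 in the 3 normal libraries (WT, *stl*-sibling and *btl*-sibling).

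Against its sibling library, *btl* had more RNA of 4 *her* repressors and less RNA of a receptor and of an early somite gene, whereas *stl* had 0 called genes among the 39. With the trend by coding length removed, as described below, *her12*, *her13* and *notch2* lost their calls, and *meox1* and *rfng* were called lower. The genes called higher in *btl* were *her7*, *her11*, *her12* and *her13*, which is 4 of 39 members (10.3%) beside 4.33% of all 15362 genes. *her11* passed the filter of 2 CPM only through its value in *btl*. Its calls in *btl*, against the sibling and against WT, are therefore not independent of that filter. Called lower in *btl* were *notch2* and *tcf15*, 2 of 39 (5.13%) beside 3.27% of all genes, a count too small to set the members apart. In *stl* 0 members were called lower, beside 0.996% of all genes, and 0 were called higher, beside 0.215%. With shares of all genes this low in *stl*, 0 of 39 does not set the members apart. The split of all genes called in *btl* was 503 lower and 665 higher, and it turned with the scaling, to 847 and 321 with CPM from library totals alone, 2127 and 64 with TPM, and 486 and 255 with the length trend removed. Against WT, the same 4 repressors were called higher in *btl*, beside 1.8% of all genes, and *tcf15* alone was called lower, beside 2.56%. In *stl* against WT 0 members were called in either direction, beside 1.52% of all genes lower and 1.2% higher. The comparisons of 1 mutant with its sibling and with WT share the mutant library and are not independent of each other. Between the normal libraries 0 of the 39 members were called, beside 1.71% of all genes in *stl*-sibling against WT, 1.36% in *btl*-sibling against WT and 2.12% in *stl*-sibling against *btl*-sibling.

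**Figure D1:**
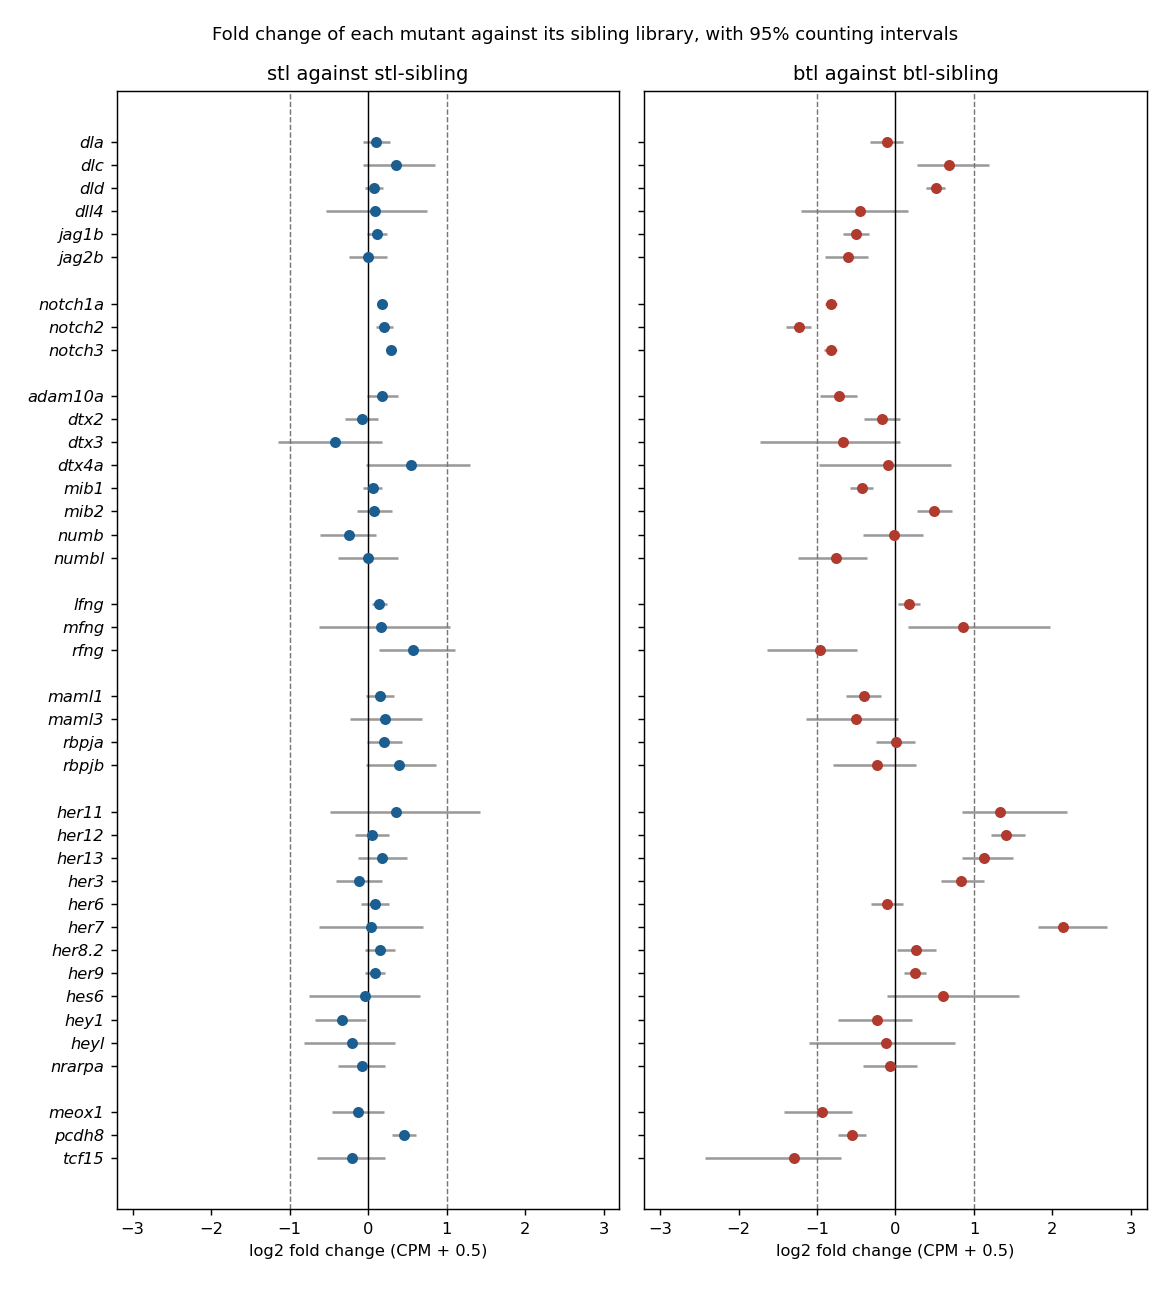
Log2 fold change of the 39 genes (rows, in order of role from ligands to somite genes) in *stl* against *stl*-sibling (left) and *btl* against *btl*-sibling (right). Points are the values with 0.5 CPM added, bars the 95% counting intervals of the read ratio, and dashed lines mark 2-fold. In *stl* every point lies between -0.42 and 0.58, whereas in *btl* they spread from -1.30 (*tcf15*) to 2.13 (*her7*).

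*her7*, which in zebrafish is a core oscillating repressor of the segmentation clock, differed most among the members. It spans 1916441 to 1918910 of linkage group 16, with a coding sequence of 603 nucleotides. It had 185 reads in *btl*, against 60 in its sibling, 50 in WT, 41 in *stl*-sibling and 41 in *stl*, or 22.1, 4.66, 4.32, 3.37 and 3.46 CPM in that order. The 4 libraries other than *btl* lay close together and *btl* stood alone above them. The CPM in *btl* was 4.74-fold that of the sibling and 5.12-fold that of WT. With 0.5 CPM added, the log2 value against the sibling was 2.13 (interval 1.82 to 2.69). Among all 15362 genes it had rank 16 from the highest in *btl* against its sibling.

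*her11*, which takes part in the somitogenesis clock of zebrafish, spans 8782373 to 8783795 of linkage group 9. Its reads were few, with 57 in *btl*, against 31 in its sibling, 23 in WT, 18 in *stl*-sibling and 24 in *stl*. In CPM these were 6.81, 2.41, 1.99, 1.48 and 2.02, so that *btl* was again above the other 4 libraries. The log2 fold change in *btl* was 1.33 relative to the sibling (interval 0.84 to 2.18), and relative to WT it was 1.56 (interval 1.06 to 2.54).

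*her12*, a repressor of the Hes5 type that in zebrafish is expressed in the presomitic mesoderm, spans 21719623 to 21721075 of linkage group 8. It had 59.9 CPM in *btl* (501 reads), against 22.2 in its sibling, 24.4 in WT, 29.5 in *stl*-sibling and 30.5 in *stl*. The log2 fold change in *btl* was 1.41 relative to the sibling (interval 1.22 to 1.65), and relative to WT it was 1.28 (interval 1.08 to 1.51). *her13*, on linkage group 2 from 24700605 to 24704996, had 23.8 CPM in *btl* (199 reads), against 10.6 in its sibling, 9.85 in WT, 13.5 in *stl*-sibling and 15.3 in *stl*. Its log2 fold change in *btl* was 1.13 relative to the sibling (interval 0.85 to 1.5), and relative to WT it was 1.23 (interval 0.93 to 1.62). For both genes *btl* was the highest of the 5 libraries, and both libraries of the *stl* line were above WT by less than 2-fold.

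**Figure D2:**
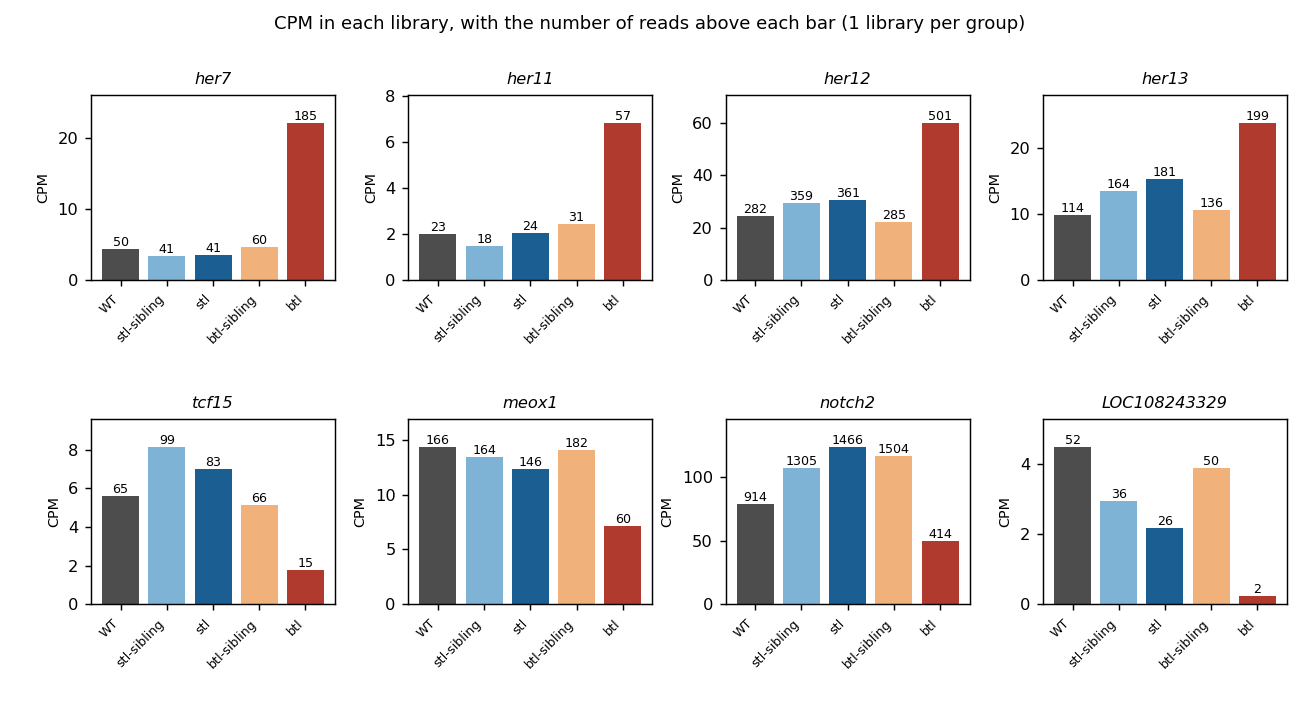
CPM (y axis from 0) of 8 genes in the 5 libraries, with the estimated reads, rounded to whole numbers, above each bar. The 4 repressors in the upper row are highest in *btl*, and the 4 genes in the lower row, of which LOC108243329 is annotated as a mesoderm posterior protein, are lowest in *btl*, where LOC108243329 has 2 reads.

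The other members of the repressor and feedback group stayed under 2-fold in *btl* against its sibling. *her3*, which represses neurogenesis in the zebrafish neural plate, came nearest, at 28.5 CPM in *btl* (238 reads), against 15.8 in its sibling, 16.9 in WT, 16.8 in *stl*-sibling and 15.5 in *stl*. Its log2 fold change in *btl* was 0.83 (interval 0.57 to 1.13), and *btl* was above the other 4 libraries. *hes6*, whose product forms dimers with clock repressors in zebrafish, had between 25 and 37 reads in every library and a log2 fold change of 0.61 (interval -0.11 to 1.58). *her6*, *her8.2* and *her9* had values from -0.11 to 0.26. *her6*, a relative of mammalian Hes1, ranged over the libraries from 35.7 CPM in WT to 43.3 in *stl*. *nrarpa*, whose small ankyrin-repeat product dampens Notch signalling, had 13.6 CPM in *btl*, against 14.3 in its sibling, 10.5 in WT, 16.3 in *stl*-sibling and 15.4 in *stl*. The log2 fold change of *nrarpa* in *btl* was -0.07 (interval -0.42 to 0.28), an interval that includes 0, unlike those of the 4 repressors. *hey1* and *heyl*, known from vessels and somites, had values of -0.24 and -0.12, with intervals that include 0. Over the 12 kept members of this group, 8 were higher and 4 lower in *btl* than in the sibling, with a median of 0.44 beside -0.02 for all genes, and in *stl* the median was 0.04.

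The repressor genes are short, and fold changes in *btl* followed the length of the coding sequence. For genes of 114 to 450 nucleotides the median between *btl* and its sibling was 0.79 on the log2 scale, and for those of 5235 nucleotides or more it was -0.38. The 12 repressor and feedback members had a median coding length of 700.5 nucleotides, and the 3 receptors had lengths of 7437 to 7536. *her12*, annotated with 435 nucleotides, falls in the shortest of 20 length bins, in which 33.8% of genes were called higher. In the bin that holds *her7* and *her13*, from 594 to 699 nucleotides, 6.12% were called higher, and in that of *her11*, from 819 to 930 nucleotides, 5.73%. With the median of the length bin subtracted, the log2 fold changes in *btl* were 1.85 for *her7*, 1.09 for *her11*, 0.86 for *her13* and 0.62 for *her12*. All 4 stayed above 0 on that basis, but *her12* and *her13* were no longer at 2-fold. For *nrarpa*, of 339 nucleotides, the same step gave -0.86. Over the 12 repressor and feedback members it took the median from 0.44 to 0.18. These values are against the sibling. Against WT, with the length-bin median subtracted, *her7* was at 2.05, *her11* at 1.44, *her13* at 1.05 and *her12* at 0.76. There *her13* stayed above 2-fold and *her12* did not.

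**Figure D3:**
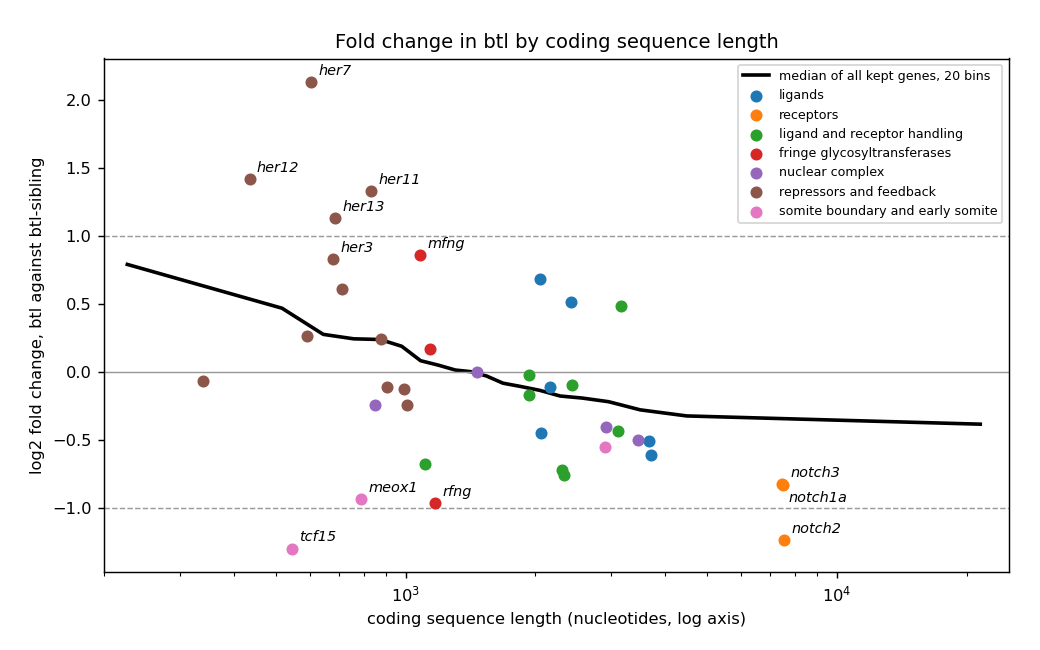
Log2 fold change in *btl* against *btl*-sibling (y axis) of the 39 genes, coloured by role, by the length of the longest coding sequence (x axis, log scale). The black line joins the medians of 20 length bins of all 15362 genes, drawn at the geometric middle of each bin, and falls from 0.79 to -0.38, with *her7* and *her11* farthest above it, *notch1a* and *notch3* drawn over each other, and *tcf15* and *meox1* farthest below.

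Among the ligands, the Delta genes that serve the clock in zebrafish were higher in *btl*, and the Jagged genes were lower, in each case by less than 2-fold. *dlc*, whose transcript oscillates in zebrafish, had 85 reads in *btl*, against 79 in its sibling, 57 in WT, 73 in *stl*-sibling and 93 in *stl*, or 10.2, 6.14, 4.92, 6.00 and 7.84 CPM. Its log2 fold change in *btl* was 0.69 relative to the sibling (interval 0.27 to 1.19), and relative to WT it was 0.98 (interval 0.55 to 1.56). *dld*, also a Delta ligand of the presomitic mesoderm and of neurons, was the more abundant, at 126.6 CPM in *btl*, against 88.7 in its sibling, 82.8 in WT, 107.6 in *stl*-sibling and 113.3 in *stl*. The value in *btl* was 0.51 against the sibling (interval 0.39 to 0.64). In TPM it was -0.07, where the median over all genes was -0.55. In CPM both *dlc* and *dld* were higher in *btl* than in any other library, and *stl* came next. In TPM *stl* was above *btl* for both, at 3.28 and 3.04 for *dlc* and at 39.7 and 31.7 for *dld*. *dla*, which marks new neurons in zebrafish, was at -0.11 (interval -0.32 to 0.10).

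*jag1b*, a Jagged ligand of the head skeleton in zebrafish, had 52.6 CPM in *btl*, against 74.8 in its sibling, 66.2 in WT, 76.2 in *stl*-sibling and 82.5 in *stl*. That is a log2 fold change of -0.50 in *btl* (interval -0.67 to -0.34), with *btl* the lowest library. *jag2b* was at -0.61 (interval -0.90 to -0.34) against the sibling but at -0.09 (interval -0.40 to 0.21) against WT. *dll4*, the ligand of growing vessels, had between 28 and 61 reads in each library and a value of -0.45 in *btl*, with an interval that includes 0. Beside these 2 Jagged genes, LOC108249624, whose product is named protein jagged-2 in the files but whose symbol is outside the rule, had 88 reads in *btl* and between 208 and 227 in the other libraries. Its log2 fold change in *btl* was -0.72 (interval -1.12 to -0.38). Its name is known only because the study's own comparisons had picked the gene, so its value is not independent of that choice.

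*notch1a* and *notch3* had the most reads of the set, and all 3 receptors were lower in *btl* than in every other library. *notch1a* had 251.8 CPM in *btl*, against 445.5 in its sibling, 298.6 in WT, 415.3 in *stl*-sibling and 470.2 in *stl*. *notch3*, which acts in neural progenitors and in the mural cells of vessels, had 185.3, 328.7, 245.1, 339.5 and 415.9 CPM in the same order. *notch2* had 49.5, 116.9, 78.9, 107.2 and 123.7 CPM. In each receptor *btl* was lowest, WT came next, and the siblings and *stl* were above them. The log2 fold changes in *btl* against the sibling were -0.82 for *notch1a* (interval -0.90 to -0.75), -1.23 for *notch2* (interval -1.40 to -1.08) and -0.83 for *notch3* (interval -0.91 to -0.74). Against WT they were -0.25, -0.67 and -0.40, so that *notch2* was called against the sibling but not against WT. With the length-bin median subtracted they were -0.44, -0.85 and -0.44 against the sibling, and *notch2* was then no longer called. In the longest length bin, which holds the receptors, 11.1% of genes were called lower in *btl* against the sibling. LOC108233732, named in the files as a homolog of notch 1 and outside the rule, had 116.1 CPM in *btl*, against 179.3 in its sibling, 122.7 in WT, 174.0 in *stl*-sibling and 202.9 in *stl*. That is the same order of libraries as *notch1a* and *notch2*, with a log2 fold change of -0.62 in *btl* (interval -0.74 to -0.52). This gene too was named only because the study's own comparisons had picked it.

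Genes that handle ligand and receptor protein all stayed under 2-fold. *adam10a*, a protease that cuts Notch outside the membrane, had 25.7 CPM in *btl*, against 42.5 in its sibling, 37.2 in WT, 33.3 in *stl*-sibling and 37.7 in *stl*. Its log2 fold change in *btl* was -0.72 (interval -0.96 to -0.50). The ubiquitin ligases of the Mind bomb type, which let ligands be taken up by the signalling cell, went apart: *mib1* was at -0.43 in *btl* (interval -0.58 to -0.29) and *mib2* at 0.49 (interval 0.27 to 0.72). *numb*, an endocytic antagonist of Notch, was at -0.02 (interval -0.41 to 0.36), and its relative *numbl* was at -0.75 (interval -1.25 to -0.36) against the sibling but at -0.06 against WT. The Deltex ubiquitin ligases *dtx2*, *dtx3* and *dtx4a* had values of -0.17, -0.67 and -0.10, with intervals that include 0.

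Fringe enzymes add sugars to Notch and change its response to ligands. *lfng* was by far the most abundant of the 3, with 727 reads in *btl*, against 992 in its sibling, 1169 in WT, 1650 in *stl*-sibling and 1772 in *stl*, or 87.0, 77.1, 101.0, 135.5 and 149.5 CPM. The mutants were close to their own siblings, at 0.14 in *stl* (interval 0.04 to 0.24) and 0.17 in *btl* (interval 0.03 to 0.31), and the latter changed sign, to -0.03 and -0.41, with CPM from library totals alone and with TPM. The libraries instead ordered by line, with both of the *stl* line above WT and both of the *btl* line below it. *rfng*, with 35 reads in *btl* and 111 in the sibling, was at -0.96 (interval -1.64 to -0.48), and against WT at -0.23. *mfng* had 20 to 28 reads in every library and was at 0.86 in *btl* (interval 0.17 to 1.97).

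In the nuclear complex, *rbpja*, which encodes the DNA-binding partner of Notch, ranged only from 25.8 CPM in *stl*-sibling to 29.9 in *stl*, and its log2 fold change was 0.00 in *btl* (interval -0.24 to 0.25). The coactivator gene *maml1* had 30.2 CPM in *btl*, against 40.1 in its sibling, 29.97 in WT, 41.2 in *stl*-sibling and 45.8 in *stl*. This placed *btl* below its sibling (-0.40, interval -0.63 to -0.19) and close to WT (0.01, interval -0.23 to 0.25). *maml3* and *rbpjb* had values of -0.50 and -0.24 in *btl*, with intervals that include 0.

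Of the genes that act after the clock, where somites form, *tcf15* was called lower in *btl*, whereas *meox1* and *pcdh8* were not called. *tcf15* (paraxis), a bHLH gene needed in mice for somites to become epithelial, spans 8419937 to 8427176 of linkage group 8. It had 15 reads in *btl*, against 66 in its sibling, 65 in WT, 99 in *stl*-sibling and 83 in *stl*, or 1.79, 5.13, 5.61, 8.13 and 7.001 CPM. The 4 other libraries were all above *btl*, in which the CPM was 2.86-fold lower than in the sibling, and with 0.5 CPM added the log2 value was -1.30 (interval -2.43 to -0.69), and -1.41 against WT (interval -2.56 to -0.82). Its coding sequence is 546 nucleotides long, so that the length-bin median of 0.47 points the other way, and with it subtracted the value was -1.77.

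*meox1*, a homeobox gene of the early somite, had 7.17 CPM in *btl* (60 reads), against 14.1 in its sibling, 14.3 in WT, 13.5 in *stl*-sibling and 12.3 in *stl*. The log2 fold change of -0.93 in *btl* (interval -1.42 to -0.55) was just under the 2-fold call, and with the length-bin median subtracted it was -1.17. *pcdh8*, a protocadherin of the presomitic mesoderm, had 46.8, 68.7, 50.4, 51.4 and 70.6 CPM in the order of *btl*, its sibling, WT, *stl*-sibling and *stl*. It was lower in *btl* than in the sibling (-0.55, interval -0.73 to -0.38) but not beyond counting error against WT (-0.10, interval -0.29 to 0.08). In all of *tcf15*, *meox1* and *pcdh8*, *btl* was the lowest library.

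*ripply2*, which shuts off Tbx6 activity at the forming boundary, was too scarce to compare. It had 15 reads in *btl*, against 39 in its sibling, 25 in WT, 12 in *stl*-sibling and 16 in *stl*. No *mesp* gene is among the 45 by symbol, but LOC108243329, named mesoderm posterior protein 2-like in the files and located on linkage group 15 from 17712602 to 17713617, belongs to that family. Its values were examined after those of the members, and its product name comes from a table of genes that the study's own comparisons had picked. It had 2 reads in *btl*, against 50 in its sibling, 52 in WT, 36 in *stl*-sibling and 26 in *stl*. With 0.5 CPM added, the log2 value in *btl* against the sibling was -2.57, and *btl* was the lowest library. The ratio rests on 2 reads, so its size is poorly known, with a counting interval from 4.27-fold to 138-fold lower.

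In *stl* the set was close to its sibling. The 39 log2 fold changes lay between -0.42 and 0.58, with a median of 0.09 beside 0.00 for all genes, and 28 of 39 were above 0. *her7* had 41 reads in both libraries (0.03, interval -0.62 to 0.70), *her12* was at 0.05 (interval -0.17 to 0.26) and *tcf15* at -0.20 (interval -0.65 to 0.22). The widest values with an interval that leaves out 0 were those of *rfng* (0.58, interval 0.14 to 1.11) and *pcdh8* (0.45, interval 0.31 to 0.61). The receptors were higher by 0.18 to 0.29 and had intervals above 0, although genes in the longest length bin also had a median of 0.12. Whether clock genes were altered in *stl* by less than the counting error of whole embryos could not be seen at this depth. The notochord markers in the same libraries summed to 1036 CPM in *stl*-sibling and 123.4 CPM in *stl*, with 5 of 8 genes called lower, beside 0.996% of all genes. These libraries thus do differ in marker RNA of the tissue in which *noto* acts.

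**Figure D4:**
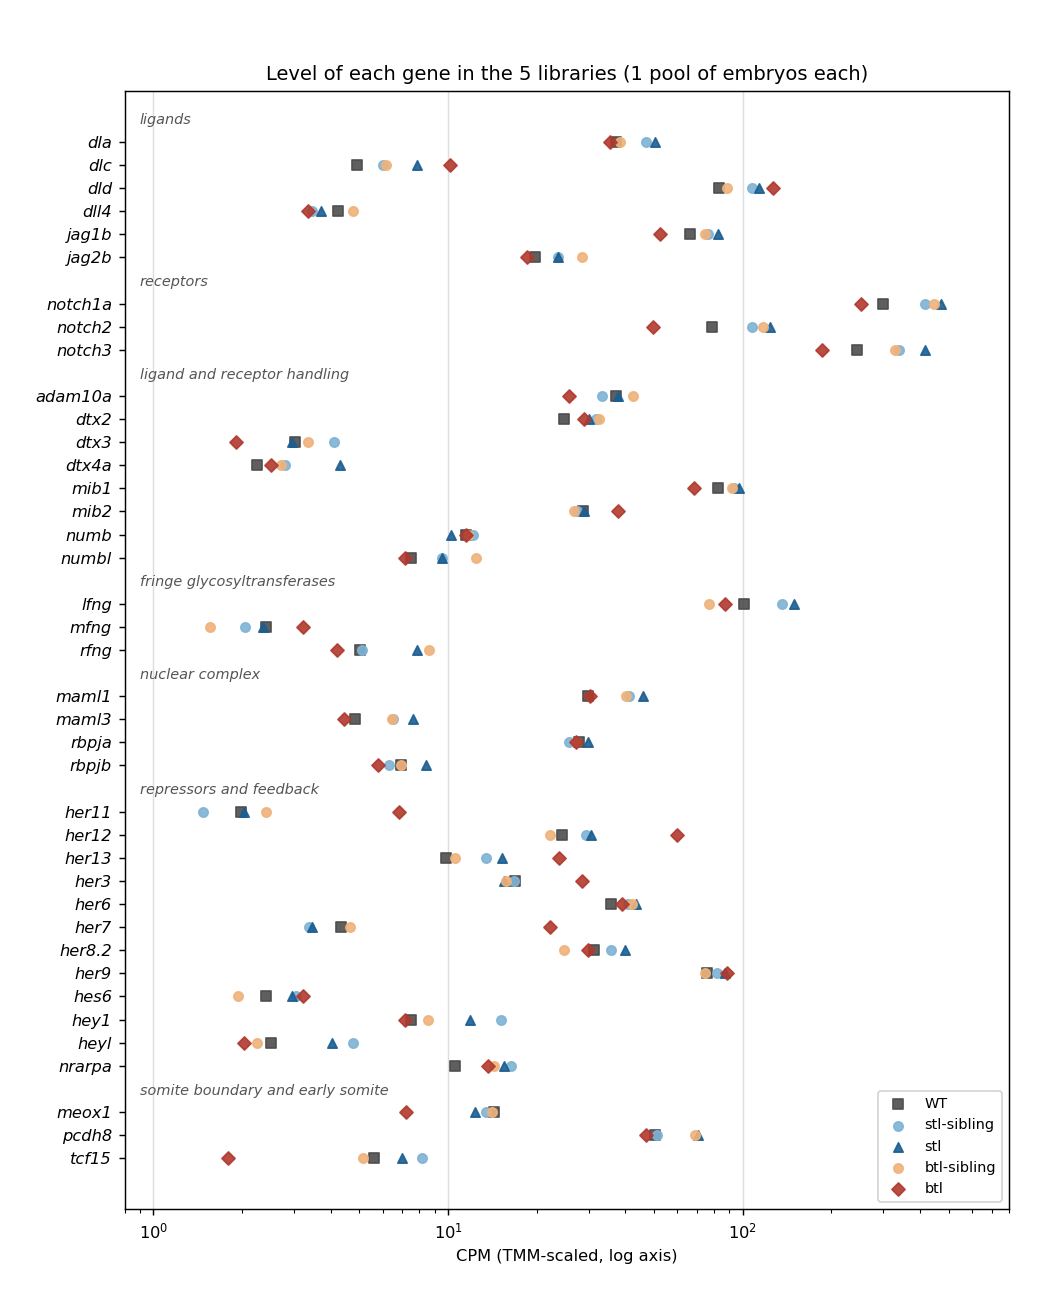
CPM (x axis, log scale) of the 39 genes in each of the 5 libraries, with rows grouped by role. *btl* (red diamonds) lies to the right of all other libraries for *her7*, *her11*, *her12* and *her13* and to the left for the receptors, *tcf15* and *meox1*, while *stl* (dark blue triangles) lies near *stl*-sibling in most rows.

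Read against all 3 normal libraries together, *btl* was below the lowest of them in 20 of 39 members (51.3%), beside 37.0% of all genes, and above the highest in 11 (28.2%), beside 36.5%. *stl* was below the normal range in 4 members (10.3%), beside 27.1% of all genes, and above it in 21 (53.8%), beside 25.3%. The 21 include *dla*, *dlc*, *dld*, *lfng*, *maml1*, *maml3*, *pcdh8* and all 3 receptors, by margins that were under 2-fold throughout. Relative to WT the median of the members was 0.32 on the log2 scale in *stl*, 0.26 in *stl*-sibling and 0.15 in *btl*-sibling. The medians of all genes were -0.02, -0.01 and 0.00 in that order. The members were thus above WT in the normal siblings of both lines. These comparisons share the WT library. The neural progenitor and neuron markers, a tissue that also uses these genes, summed to 329.1 CPM in *btl* and 354.8 in its sibling. They summed to 362.0 CPM in WT, 410.1 in *stl*-sibling and 450.9 in *stl*. As for the receptors, *stl* was highest and *btl* lowest. The order between them differed, since the receptors summed to 891.2 CPM in *btl*-sibling and 622.7 in WT, whereas these markers were slightly lower in *btl*-sibling than in WT. The part of these markers in the values of the members was not tested.

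Levels of different genes can be set beside each other only per length, in TPM. In WT the highest members in TPM were *her9* (73.4), a repressor of the neural plate, *lfng* (72.6), *her12* (59.2) and *her8.2* (49.2). The receptors *notch1a* (29.5) and *notch3* (24.4) were close to *dld* (26.1), which was the highest ligand and stood well above *dlc* (1.85). The highest member was not the same in every library. It was *her9* in *btl*-sibling as well (86.5), *lfng* in *stl*-sibling (107.1) and in *stl* (119.7), and *her12* in *btl* (115.2), where *her9* was at 68.2. *her7* was at 6.64 TPM in WT and 26.9 in *btl*, so that in *btl* it was near *her6* (28.9) and *her13* (24.6).

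Of 47 further Notch genes listed by name, 40 were found and 38 were kept, and in *btl* against its sibling 0 were called lower and 1 higher, beside the 3.27% and 4.33% of all genes, so that these counts do not set the list apart. The gene called higher was *psenen*, a small subunit of the gamma-secretase that cuts Notch within the membrane, at 20.8 CPM in the sibling and 47.3 in *btl* (1.17, interval 0.96 to 1.42). It too is in the shortest length bin and came to 0.38 with the bin median subtracted. *ncstn*, a large subunit of the same enzyme, was at -0.83 (interval -1.02 to -0.66). In *stl* 0 of the 38 were called, beside 0.996% of all genes lower and 0.215% higher.

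Of 46 further segmentation genes, 33 were found and 31 kept. In *btl* against its sibling 1 was called lower and 2 higher, which with the same shares of all genes does not set this list apart in that comparison. *tbx6*, a T-box gene of the presomitic mesoderm that is needed for *mesp* expression in mice, had 5.62 CPM in *btl*, against 18.3 in its sibling, 12.1 in WT, 12.9 in *stl*-sibling and 16.0 in *stl* (-1.62, interval -2.19 to -1.24). *msgn1*, the gene altered in *btl*, and *tbxta*, a T-box gene of the tail bud and notochord, were called higher, at 4.33 and 1.49. Against WT 5 of the 31 were called higher in *btl*, beside 1.8% of all genes, and 1 lower, beside 2.56%. Besides *msgn1* and *tbxta*, the 5 were the tail bud genes *tbx16*, *cdx4* and *wnt3a*, at 1.11, 1.20 and 1.01. Against the sibling these tail bud genes were at 0.66, 0.88 and 0.74 and were not called. The list holds *msgn1* itself and was chosen with earlier results of these data known, so its share against WT is not an independent result. *foxc1a*, which is needed for somites in zebrafish, was at -0.94 (interval -1.43 to -0.56) and *efnb2a*, an ephrin of the somite boundary, at -0.75 (interval -1.07 to -0.47). In *stl* against its sibling 1 of the 31 was called, *tbxta*, which was lower. All genes had shares of 0.996% lower and 0.215% higher, and a count of 1 is too small to set the list apart.

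Marker lists of several tissues differed between *btl* and its sibling. The 6 kept markers of presomitic and paraxial mesoderm summed to between 113.0 and 148.2 CPM in the other 4 libraries and to 365.7 in *btl*, of which *msgn1* alone made 258.5. The median log2 fold change over that list was -0.63 in *btl* against its sibling, with *msgn1* called higher and *tbx6* lower, so that its sum and its median differ in direction. The 6 kept markers of somite muscle summed to 457.9 CPM in *btl*-sibling and 187.7 in *btl*, with 5 of 6 called lower, beside 3.27% of all genes. In WT they summed to only 290.7 CPM, and 3 of 6 were called lower in *btl* against WT, beside 2.56%. The markers *ttn.1* and *ttn.2* were called lower in *btl* against its sibling only. Both were called higher in *btl*-sibling against WT, where 1.36% of all genes were called in either direction. The muscle list was also lower in *stl*, at 233.3 CPM beside 432.4 in *stl*-sibling. There 2 of 6 were called lower against the sibling, beside 0.996% of all genes, and 0 against WT, beside 1.52%. The 8 notochord markers summed to 911.2 CPM in *btl*-sibling and 336.9 in *btl*. Of them, 4 were called lower and 3 (*noto*, *tbxta* and *tbxtb*) higher, beside 3.27% and 4.33% of all genes. The endothelium list was at 157.2 and 118.8 CPM, with *cdh5* called lower, and the epidermis list at 7507 and 4428 CPM. The blood list was at 64.2 CPM in *btl*-sibling and 185.3 in *btl*, but at 188.3 in WT, 72.1 in *stl*-sibling and 82.0 in *stl*. On this list *btl* was near WT, and its sibling and both libraries of the *stl* line were lower. No matched marker was at 0 in all libraries. Their part in the higher *her* repressors and the lower *tcf15* was not tested.

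The 6 members below 2 CPM were read only as counts. *rbpjl*, a relative of RBPJ known from the mouse pancreas, had 4 reads in *btl*, against 0 in its sibling, 12 in WT, 3 in *stl*-sibling and 8 in *stl*. *hey2*, a vessel and heart gene, had at most 5 reads in a library, as did *her5*, a marker of the midbrain-hindbrain boundary in zebrafish. *hes2.1* had 7 to 11 reads and *dtx1* 11 to 22. At this depth no fold is given for them.

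Several repressor genes lie near each other in ASM164957v2. *her5* and *her11* are 4.19 kb apart on linkage group 9, with 0 protein-coding genes between them, and *her8.2* and *her13* are 8.55 kb apart on linkage group 2, also with 0 between. In *btl* *her13* was called higher, at 1.13 (interval 0.85 to 1.5), while its neighbour *her8.2* was at 0.26 (interval 0.02 to 0.51). *her5* had too few reads to be set beside *her11*. *her3*, *hes2.1* and *her12* lie in this order on linkage group 8, 87.5 and 180.1 kb apart, with 3 and 12 protein-coding genes between. *her7* has no other member within 1 Mb.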

How the data were processed

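Total RNA of pooled whole embryos was sequenced as 100 bp paired end reads. After adaptor and quality trimming, the authors ran Salmon 1.5.0 against the ASM164957v2 coding sequences and deposited, per library, an estimated count (not scaled) and a TPM value for each coding sequence. The joined count table that was deposited differed from the single libraries by at most 0. The authors' RPKM table and NOISeq comparisons (counts, log2 ratio and probability of 2 libraries) were not used, except for the product names, which those comparisons give for 3906 genes.

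Of 37181 coding sequences, 37146 were assigned to 22090 genes by protein accession, and counts and TPM were summed per gene. Reads divided among similar genes by Salmon make close paralogs uncertain. CPM used TMM factors of edgeR 4.0.16 (R 4.3.3), without a test. Further steps used Python 3.11.15, numpy 2.4.6, pandas 2.3.3, scipy 1.17.1 and matplotlib 3.10.9. Genes under a mean of 2 CPM were left out, 0.5 CPM was added before log2, and a call was a fold of at least 2. Coding length is that of the longest coding sequence, and length trends were medians of 20 bins. The code was tested on simulated data. The members and lists were chosen with earlier results of these data known. Named with values were the core clock and somite boundary genes, members that reached 2-fold, the most abundant of each role and those with 3 reads or fewer in a library; others named serve as examples of their role, chosen after their values were seen. Of the genes listed under the rule, *her1*, *her4*, *her15*, *ripply1*, *notch1b*, *nrarpb* and *mesp* are not analysed here under those symbols. Promoter and protein sequences were not used here. There were 8 alternatives: CPM from library totals alone, DESeq2 1.42.0 size factors, TPM, pseudocounts of 0.1 and 2 CPM, no filter, a minimum of 10 CPM, and removal of the length trend.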

Additional observations from a re-analysis of the deposited data

How the results depend on the processing

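In *stl* against its sibling 0 members were called under each of the 8 alternatives. Of all genes these called between 80 and 232 lower and between 11 and 98 higher, so that 0 does not set the members apart. In *btl* 2 members were called lower and 4 higher. CPM from library totals alone gave 6 lower and 3 higher (*her13* lost its call, at 0.94), beside 847 and 321 of all 15362 genes. The median over the members was then -0.31 in place of -0.12. TPM gave 12 lower and 1 higher (*her7*), beside 2127 and 64 of all genes, with a median over the members of -0.68. These scalings place the median of all genes at -0.22 and -0.55 in *btl*, against -0.02. A pseudocount of 2 CPM gave 1 lower (*notch2*) and 3 higher (*tcf15*, at -0.91, and *her11*, at 0.9991, lost their calls), a minimum of 10 CPM gave 1 lower and 2 higher, since *her7*, *her11* and *tcf15* are then left out, and removal of the length trend gave 2 higher (*her7* and *her11*) and 3 lower (*tcf15*, *meox1* and *rfng*), while *notch2*, at -0.85, *her12* and *her13* lost their calls. *her7* was called in each alternative that kept it. Of 246 values of named genes under alternatives, 214 stayed within the counting interval and 32 did not, and no called gene changed sign. The 214 include all values without a filter and with a minimum of 10 CPM, which could not move, since the filter leaves each fold unchanged. Most of the 32 were values of *btl*, under TPM, library totals alone or removal of the length trend, so the total says little about the *btl* values. No paired analysis was possible because each group has 1 library. Low reads limit *her11* and *tcf15* among the called members, and *rbpjl*, *her5* and *hey2* had 3 reads or fewer in a library.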

Other observations

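Some members differed between the normal libraries of the lines. *hey1* had 7.17 CPM in *btl*, against 8.55 in its sibling, 7.51 in WT, 15.1 in *stl*-sibling and 11.9 in *stl*, and *heyl* had 2.03, 2.25, 2.50, 4.76 and 4.05 CPM in the same order. Both were highest in the libraries of the *stl* line. In *stl*-sibling against WT the log2 fold change was 0.96 for *hey1* (interval 0.63 to 1.39) and 0.81 for *heyl* (interval 0.26 to 1.62). In *stl* against its sibling *hey1* was at -0.33 (interval -0.67 to -0.02) and *heyl* at -0.21 (interval -0.82 to 0.34). The 5 kept endothelium markers summed to 127.0 CPM in *stl*-sibling and 142.8 in WT, and their part in these values was not tested. LOC108241929, named in the files as a *hey1*-like protein and outside the rule, had 7.17 CPM in *btl*, against 14.0 in its sibling, 13.0 in WT, 18.1 in *stl*-sibling and 11.5 in *stl*, and was lower than the sibling in both mutants, at -0.63 in *stl* (interval -0.97 to -0.34) and -0.92 in *btl* (interval -1.41 to -0.54). LOC108241929 was named only because the study's own comparisons had picked it. With 1 library of each group, line and pool cannot be told apart in these values.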
